A study of Homo sapiens with 6 samples.

Results

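The binding of 2 transcription factors was examined at 7 genes that move sodium, chloride and protons across the airway epithelium: SCNN1A, SCNN1B, SCNN1G, SLC26A9, ANO1, SLC12A2 and ATP12A. The measurements were peaks of chromatin immunoprecipitation followed by sequencing (ChIP-seq), in which DNA bound by a protein is recovered with an antibody and sequenced. A peak counted as lying at a gene when its midpoint fell within 50 kb of the gene's span on hg19. By this rule 35 of the 74158 deposited peaks lay at the 7 genes. They comprised 2 of the 1510 peaks of KLF5 in Calu-3 cells, 4 of the 3262 peaks of KLF5 in 16HBE14o- cells and 29 of the 69386 peaks of CEBPB in Calu-3 cells.

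The study profiled 6 samples in 3 groups of 2. Both lines are human bronchial epithelial lines by their labels, Calu-3 coming from a lung adenocarcinoma and 16HBE14o- being an immortalised line, and all cells were untreated and kept in the same serum-supplemented medium. Of the Calu-3 KLF5 samples, 1 was precipitated with a rabbit anti-KLF5 antibody and the other with a Santa Cruz antibody, which was also used for both 16HBE14o- KLF5 samples; CEBPB was precipitated with a different Santa Cruz antibody. Line and antibody therefore cannot be told apart in a comparison of the KLF5 lists. CEBPB is represented here by Calu-3 alone. Each group has 1 peak list, made from both of its samples, so no value carries an error between samples and no difference between lists could be tested across replicates. RNA was not measured, so neither the activity of the 7 genes nor the labelled cell type could be checked.

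Airway surface liquid is set by the balance of absorbed sodium and secreted chloride. The epithelial sodium channel ENaC, built from the alpha, beta and gamma subunits that SCNN1A, SCNN1B and SCNN1G encode, lets sodium enter the cell from the airway surface. SLC12A2 (NKCC1) loads chloride into the cell from the basolateral side, and SLC26A9, an anion transporter and channel, and ANO1 (TMEM16A), a calcium-activated chloride channel, carry chloride at the apical side. ATP12A is a proton pump that exchanges potassium for protons and acidifies the surface liquid. KLF5 is a Krüppel-like zinc finger factor that binds GC-rich boxes, and CEBPB is a basic leucine zipper factor.

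KLF5 peaks were found at 2 of the 7 genes in Calu-3 and at 3 in 16HBE14o-, and CEBPB peaks at all 7. With a q-value of 0.05 or less required, every gene but SCNN1G still had a CEBPB peak. Of genome tiles as wide as the genes' windows, 79.9 to 86.3% held a CEBPB peak, so CEBPB at all 7 is near this background. A Calu-3 KLF5 peak was in 5.03 to 7.65% of such tiles and a 16HBE14o- KLF5 peak in 9.05 to 13.2%. The tiles include regions poor in genes, and whether the KLF5 counts differ from this background was not tested. In Calu-3, KLF5 had 1 peak at SCNN1A and 1 at ANO1. In 16HBE14o-, it had 1 at SCNN1A, 1 at SCNN1G and 2 at ANO1. None of these KLF5 peaks of one line overlapped a KLF5 peak of the other (0 of 2 Calu-3 and 0 of 4 16HBE14o- peaks, exact Clopper-Pearson 95% confidence intervals 0 to 84.2% and 0 to 60.2%), where 23.6% and 11.3% of the whole lists did. SCNN1B, SLC26A9, SLC12A2 and ATP12A had no KLF5 peak in either line. With so few peaks these shares do not place the 7 genes above or below the rest of the lists.

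**Figure D1:**
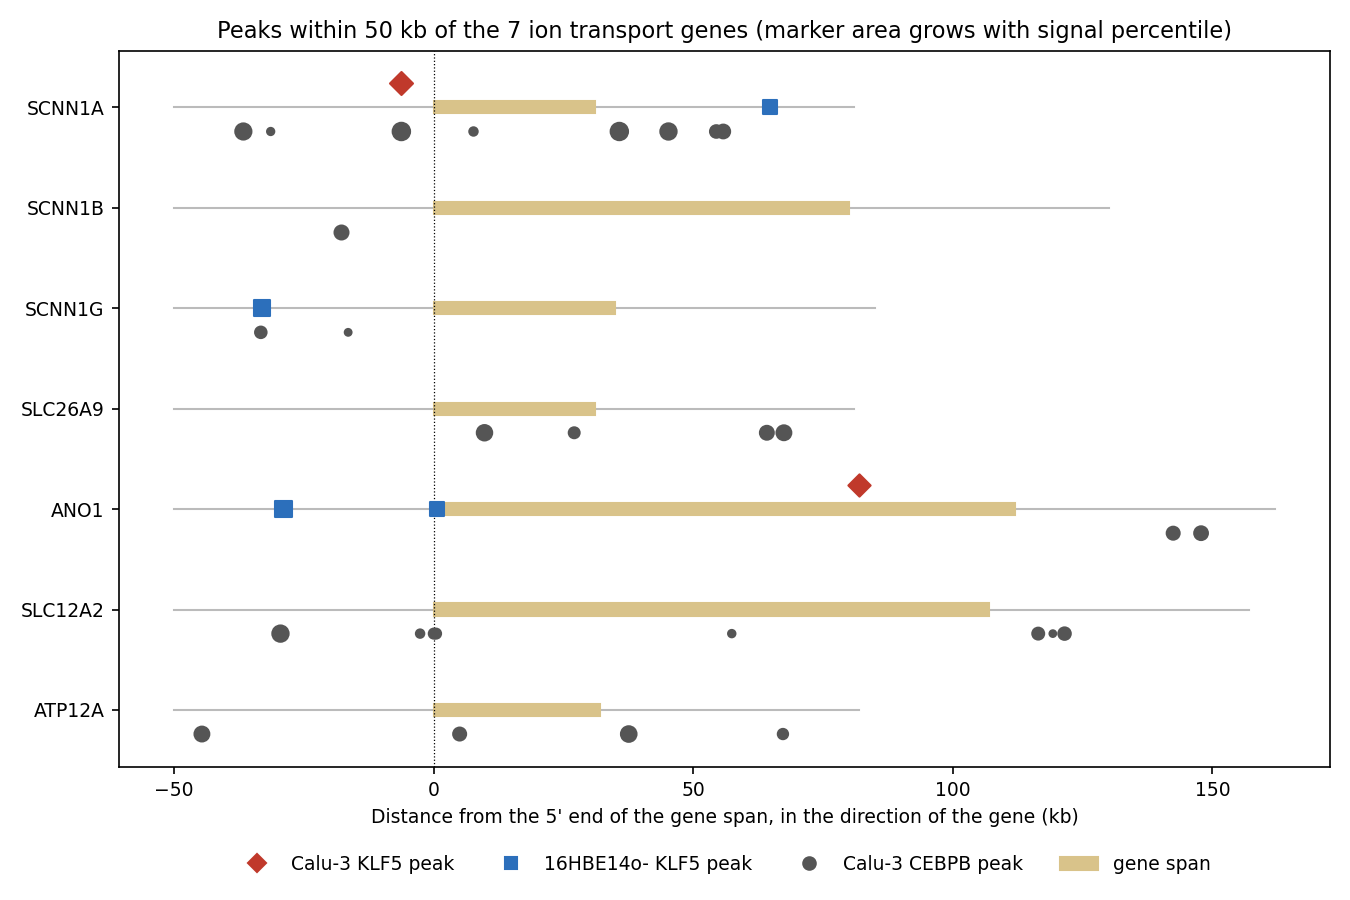
Position of every peak at the 7 genes, as the distance in kb of the peak's midpoint from the 5′ end of the gene span, with the gene read from left to right; bars are gene spans, grey lines the windows, and markers the peaks of each list, drawn larger for a higher signal percentile. The single place where a Calu-3 KLF5 peak and a CEBPB peak coincide lies 6.23 kb before the 5′ end of SCNN1A.

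Signals are the authors' values per peak and are given with their percentile in the same list, 100 being the highest; signals of different lists share no stated scale. Distances are taken from span ends rounded to 1 kb and carry that rounding.

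The site shared by both factors in Calu-3 lay before SCNN1A. The KLF5 peak was on chromosome 12 at 6493095 to 6493374, 6.23 kb before the 5′ end of the span, with a signal of 40.4 (percentile 85.2, rank 224 of 1510) and a score of 1000, the maximum, shared by 46.0% of KLF5 peaks in Calu-3 and by 33.2% in 16HBE14o-. The CEBPB peak at 6493062 to 6493429 contained it whole, and the summits were 25 bp apart. All KLF5 peaks at the 7 genes had their list's median width, 280 bp in Calu-3 and 344 bp in 16HBE14o-. Containment and shared length therefore do not measure the extent of KLF5 binding. The CEBPB peak of this site had a signal of 21.4 (percentile 99.74, rank 178 of 69386) and a −log10 q of 81.4. Both peaks were therefore in the upper part of their lists. Such pairs are common in Calu-3, where 43.7% of all KLF5 peaks overlapped a CEBPB peak. Among those 660 KLF5 peaks, the CEBPB peak before SCNN1A ranked 62 by signal, against a median CEBPB percentile of 96.3, and 17 of the 660 (2.58%), this one included, were at least as high in both lists. The nearest 16HBE14o- KLF5 summit was 70.9 kb away. LTBR, the lymphotoxin beta receptor, overlaps the 5′ end of SCNN1A in the RefSeq gene table and lies on that side, so the site is assigned here to the window and not to either gene.

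On the other side of SCNN1A, the next protein-coding gene is TNFRSF1A, a receptor of tumour necrosis factor. A CEBPB peak at 6451128 to 6451384 lay 4.74 kb beyond the 3′ end of SCNN1A, with a signal of 14.5 (percentile 98.94) and a −log10 q of 42.1. Its distance from the start of TNFRSF1A was not measured, so this peak too is assigned to the window and not to either gene. This peak and the one shared with KLF5 were the only CEBPB peaks at the 7 genes in the top 10% of the list. A weaker CEBPB peak followed at 6441699 to 6441882 (signal 4.43, percentile 84.97). The one CEBPB peak within the span of SCNN1A, at 6479264 to 6479440, was low, at percentile 10.2 with a −log10 q of 0.656. The 16HBE14o- KLF5 peak at 6422114 to 6422457 was farther out, 33.7 kb beyond the 3′ end (signal 33.9, percentile 65.7, score 736), and its nearest CEBPB summit was 8.94 kb away. The other 4 CEBPB peaks of the window, 2 on each side, ranged from percentile 3.30 to 83.2. In all, the SCNN1A window had 8 CEBPB peaks, 5 of them with a q-value of 0.05 or less. Of all tiles of the genome of that window's width, 131 kb, 79.9% held at least 1 CEBPB peak and 6.72% held 8 or more. At least 1 Calu-3 KLF5 peak was held by 5.03% of such tiles and at least 1 16HBE14o- KLF5 peak by 9.07%. The tiles include regions poor in genes, so the shares are a background for width alone.

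The genes of the other ENaC subunits lie next to each other on chromosome 16, SCNN1G before SCNN1B, and had few peaks. At SCNN1G, 16HBE14o- KLF5 had a peak at 23160702 to 23161045, 33.1 kb before the 5′ end of the span, on the side of USP31, a ubiquitin peptidase gene. Its signal of 49.6 (percentile 90.8, rank 301 of 3262, score 1000) was the highest percentile of the 6 KLF5 peaks at the 7 genes. A Calu-3 CEBPB peak at 23160592 to 23160767 overlapped it by 66 bp, with summits 204 bp apart. That CEBPB peak was weak, with a signal of 2.96 (percentile 33.8) and a −log10 q of 0.832, which is a q-value above 0.05. This was the 1 overlap with CEBPB among the 4 16HBE14o- KLF5 peaks (25%, exact interval 0.631 to 80.6%), against 22.4% in the whole list. It was lost when 50% of the shorter peak had to be shared, when summits had to lie within 100 bp, or when CEBPB peaks needed a q-value of 0.05 or less.

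The other CEBPB peak of the SCNN1G window, at 23177442 to 23177566, was among the lowest of its list (percentile 0.899, −log10 q 0.0946). SCNN1B had a single peak in any list, a CEBPB peak at 23295056 to 23295208, 17.9 kb before the 5′ end of the span, with a signal of 3.37 (percentile 57.8) and a −log10 q of 2.03. The RefSeq gene is 103.1 kb long against 80 kb for the span, although 79.0 kb separate the start in the promoter table from the gene's end, so this peak may lie within the longer gene. No peak of any list lay within the span of SCNN1G or SCNN1B. The nearest Calu-3 KLF5 peak was 330 kb from the span of SCNN1B and 494 kb from that of SCNN1G. Within the 50 kb flank, SCNN1A thus had peaks in all 3 lists, SCNN1G in 2 and SCNN1B in 1. These counts depend on the rule. The 16HBE14o- KLF5 peaks of SCNN1A and SCNN1G were lost at a flank of 25 kb, and no CEBPB peak of SCNN1G had a q-value of 0.05 or less. Whether the 3 genes differ was not tested. Tiles as wide as the SCNN1G window (135 kb) held at least 1 16HBE14o- KLF5 peak in 9.31% and at least 1 CEBPB peak in 80.5% of cases, and 65.9% held 2 or more CEBPB peaks. At least 1 Calu-3 KLF5 peak, of which SCNN1G had none, was in 5.19% of them. For the 180 kb of the SCNN1B window, 84.3% held at least 1 CEBPB peak, 6.68% a Calu-3 KLF5 peak and 11.8% a 16HBE14o- KLF5 peak.

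**Figure D2:**
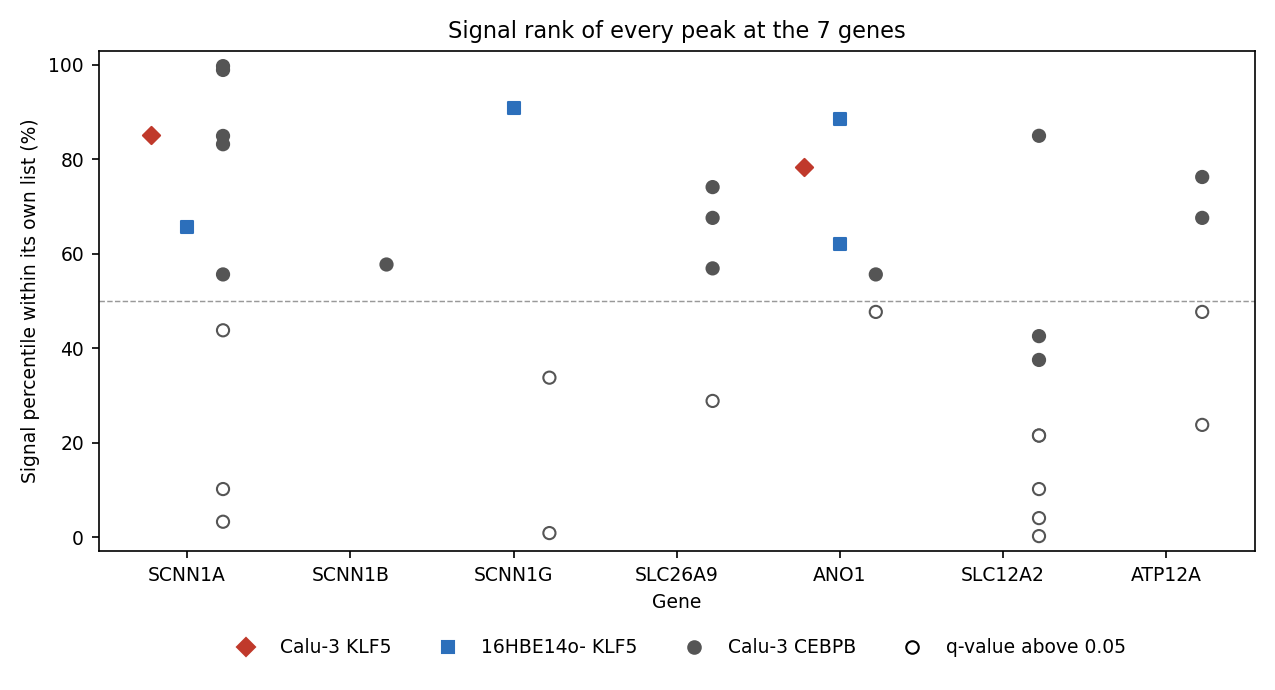
Signal percentile of each of the 35 peaks within its own list, by gene; filled markers have a deposited q-value of 0.05 or less and open markers a higher one. All 6 KLF5 peaks are above the middle of their lists, at percentiles 62.2 to 90.8. The 29 CEBPB peaks, from a far longer list, run from 0.256 to 99.74, and the 2 ranges are not compared.

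ANO1 was the other gene with KLF5 peaks in both lines, and they lay at different places. Distances here are from the 112 kb span; the RefSeq gene of GRCh38.p14 is longer, at 223.5 kb, so a place before the span can still lie within that longer gene. In 16HBE14o- a KLF5 peak at 69924467 to 69924810 on chromosome 11 was 0.638 kb inside the 5′ end of the span, which at the 1 kb resolution of the span is its start. Its signal was 32.8 (percentile 62.2), and its score of 572 was near the list's minimum of 540. A stronger 16HBE14o- peak lay 29.0 kb before the span at 69894833 to 69895176, with a signal of 46.8 (percentile 88.6) and a score of 1000. The Calu-3 KLF5 peak was within the span, 81.9 kb from the span's 5′ end, at 70005734 to 70006013 (signal 36.2, percentile 78.5, score 1000). Its summit was 81.2 kb from the nearest 16HBE14o- summit. Thus the peak at the start of the ANO1 span was listed in 16HBE14o-, and the Calu-3 list had none there. At unknown depth, a missing entry does not show that KLF5 was not bound.

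The 2 CEBPB peaks of the ANO1 window were beyond its 3′ end, on the side of FADD, an adaptor of death receptors. They stood at 70066370 to 70066509 (percentile 47.7, −log10 q 0.832) and 70071655 to 70071969 (percentile 55.6, −log10 q 1.56). The nearest CEBPB summit to the Calu-3 KLF5 peak was 60.6 kb away, so ANO1 had no site with both factors. In tiles of the same width, 212 kb, at least 1 Calu-3 KLF5 peak was present in 7.65%, at least 1 16HBE14o- KLF5 peak in 13.2% and 2 or more in 4.61%. At least 1 CEBPB peak was present in 86.3% of them and 2 or more in 77.6%, so the CEBPB count at ANO1 was near this background.

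**Figure D3:**
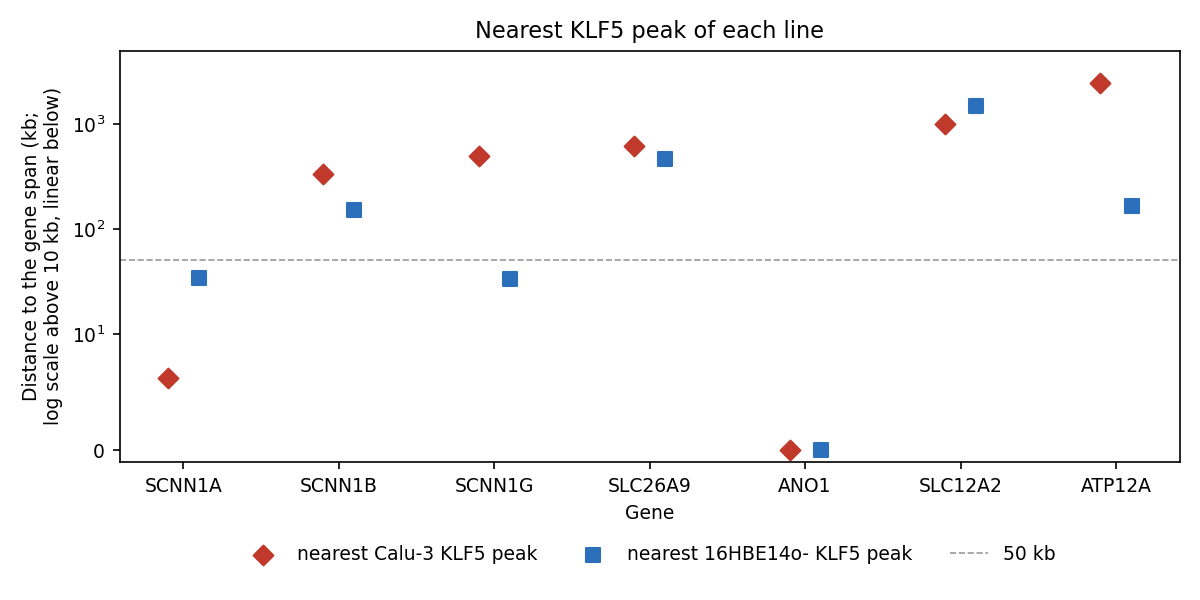
Distance in kb from each gene span to the midpoint of the nearest KLF5 peak of each line, on a scale that is logarithmic above 10 kb; 0 means within the span, and the dashed line marks the 50 kb of the rule. ANO1 has a peak of both lines in its span, whereas at SLC12A2 and ATP12A the nearest Calu-3 peaks are 995 and 2483 kb away.

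Among the chloride transport genes without KLF5, SLC12A2 was the one with CEBPB at its start. A pair of CEBPB entries lay at the 5′ end of its span on chromosome 5, at 127418935 to 127419059 and 127419175 to 127419708, with a gap of 115 bp. Both had a signal of 2.78 (percentile 21.5) and a −log10 q of 0.971. They were therefore low in the list, with q-values above 0.05. The second entry, 534 bp long, was the widest peak at the 7 genes; it was singled out after its values were seen. The sequence before the start is shown because these entries lie near it, the second with its midpoint 0.441 kb inside the span. Whether either entry covers any of these bases is not known. It is the 250 bases before the RefSeq transcription start, GRCh38.p14, plus strand, with every base of a GGGCGGG or GGGTGGG match on either strand in capitals; the build differs from that of the peaks, so peak edges cannot be placed on it.

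SLC12A2 chr5:128083516-128083765: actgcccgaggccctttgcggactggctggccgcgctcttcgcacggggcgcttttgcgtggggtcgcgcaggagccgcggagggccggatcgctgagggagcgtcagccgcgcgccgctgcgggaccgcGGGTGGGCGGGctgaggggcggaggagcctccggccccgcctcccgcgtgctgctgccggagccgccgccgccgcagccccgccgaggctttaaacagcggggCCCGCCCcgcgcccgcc

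It held 2 matches of GGGCGGG and 1 of GGGTGGG, the letters of the GC and CACCC boxes that Krüppel-like factors are known to bind. The plus-strand matches overlapped, GGGTGGG at -120 to -114 and GGGCGGG at -116 to -110 from the start, and the other GGGCGGG match was on the minus strand at -17 to -11. None of TTGCGCAA, TTGCAACA, TTGCATCA or TTGCNNAA, forms of the CEBP site, was in this window. In the 250 bases before the start of all 35116 promoters of the table, GGGCGGG was present in 31.5%, GGGTGGG in 18.2%, either in 41.5%, and any of the 4 CEBP forms in 10.1%. The SLC12A2 stretch was 79.6% G or C, against a median of 58.0% over the table.

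For comparison, these are the same 250 bases of the 3 further genes whose table start fits the hg19 span within 2 kb, none of which had a peak at its start in any list.

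SCNN1B chr16:23302052-23302301, plus strand: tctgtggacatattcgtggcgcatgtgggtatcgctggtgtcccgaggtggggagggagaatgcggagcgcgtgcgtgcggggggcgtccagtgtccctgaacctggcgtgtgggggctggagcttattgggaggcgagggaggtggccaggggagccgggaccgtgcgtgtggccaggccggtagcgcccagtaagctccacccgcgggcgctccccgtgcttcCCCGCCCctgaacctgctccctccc
ATP12A chr13:24680158-24680407, plus strand: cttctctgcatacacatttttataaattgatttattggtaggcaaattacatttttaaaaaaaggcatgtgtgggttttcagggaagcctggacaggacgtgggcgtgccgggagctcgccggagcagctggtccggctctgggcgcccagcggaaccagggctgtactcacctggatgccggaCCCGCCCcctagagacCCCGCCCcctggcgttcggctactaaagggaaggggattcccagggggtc
SLC26A9 chr1:205943457-205943706, minus strand: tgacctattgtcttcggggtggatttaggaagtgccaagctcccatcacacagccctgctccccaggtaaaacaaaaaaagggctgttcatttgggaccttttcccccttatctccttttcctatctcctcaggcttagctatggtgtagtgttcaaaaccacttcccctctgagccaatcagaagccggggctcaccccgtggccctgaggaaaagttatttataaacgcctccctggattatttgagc

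SCNN1B held 1 GGGCGGG match and ATP12A 2, all on the minus strand, and SLC26A9 had no match of any motif searched. None of these 3 held a CEBP form. The boxes were thus present in promoters of genes with no KLF5 peak in either list, and matches are a description of letters, not of binding. ANO1 is in the table too, but 203.6 kb separate its table start from the gene's end against 112 kb for the hg19 span, so that sequence belongs to another start and is not shown.

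Elsewhere in its window SLC12A2 had 6 more CEBPB peaks. The one with the highest signal lay 29.5 kb before the gene at 127389354 to 127389578 (signal 4.44, percentile 84.99, −log10 q 3.51). Beyond the 3′ end, on the side of the fibrillin gene FBN2, peaks at 127535349 to 127535532 (percentile 37.6) and 127540449 to 127540577 (percentile 42.6) also had q-values of 0.05 or less. The other 3 were at percentiles 0.256 to 10.2. SLC12A2 thus equalled SCNN1A with 8 CEBPB peaks but in a window of 207 kb, and 22.2% of tiles of that width held as many. At least 1 was held by 86.0% of them, a Calu-3 KLF5 peak by 7.45% and a 16HBE14o- KLF5 peak by 12.9%. The nearest KLF5 peaks were 995 kb away in Calu-3 and 1488 kb away in 16HBE14o-.

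At SLC26A9 CEBPB had 4 peaks and KLF5 none. The one of highest signal was within the gene, 9.77 kb from the 5′ end on chromosome 1 at 205903124 to 205903339, with a signal of 3.83 (percentile 74.1) and a −log10 q of 5.67. Ranked by q-value it stood at percentile 88.3. A second peak within the gene, at 205885888 to 205886013, was at percentile 28.9. The remaining pair, at 205845490 to 205845614 (percentile 67.6) and 205848773 to 205848906 (percentile 56.9), lay 36.4 and 33.2 kb beyond the 3′ end, on the side of PM20D1. All but the second had q-values of 0.05 or less. Of tiles of the same width, 131 kb, 37.1% held 4 or more CEBPB peaks, 5.03% a Calu-3 KLF5 peak and 9.07% a 16HBE14o- KLF5 peak, so none of KLF5 is the usual case. The nearest KLF5 peaks were 611 kb away in Calu-3 and 463 kb away in 16HBE14o-.

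ATP12A resembled SLC26A9 in its counts, with 4 CEBPB peaks and no KLF5 peak. Within the gene, 4.98 kb from its 5′ end on chromosome 13, a CEBPB peak at 25258921 to 25259045 had a signal of 3.17 (percentile 47.7) and a q-value above 0.05. The one of highest signal was 5.56 kb beyond the 3′ end, at 25291427 to 25291687 (signal 3.88, percentile 76.3, −log10 q 2.01). A peak 44.7 kb before the gene, at 25209249 to 25209417, was at percentile 67.6, and the fourth was at percentile 23.8. Tiles of the same width, 132 kb, held at least 1 CEBPB peak in 80.1% and 4 or more in 37.2% of cases. A Calu-3 KLF5 peak was in 5.05% of them and a 16HBE14o- KLF5 peak in 9.05%, so a window of this width without KLF5 is the usual case. The nearest 16HBE14o- KLF5 peak was 167 kb away and the nearest Calu-3 one 2483 kb away.

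**Figure D4:**
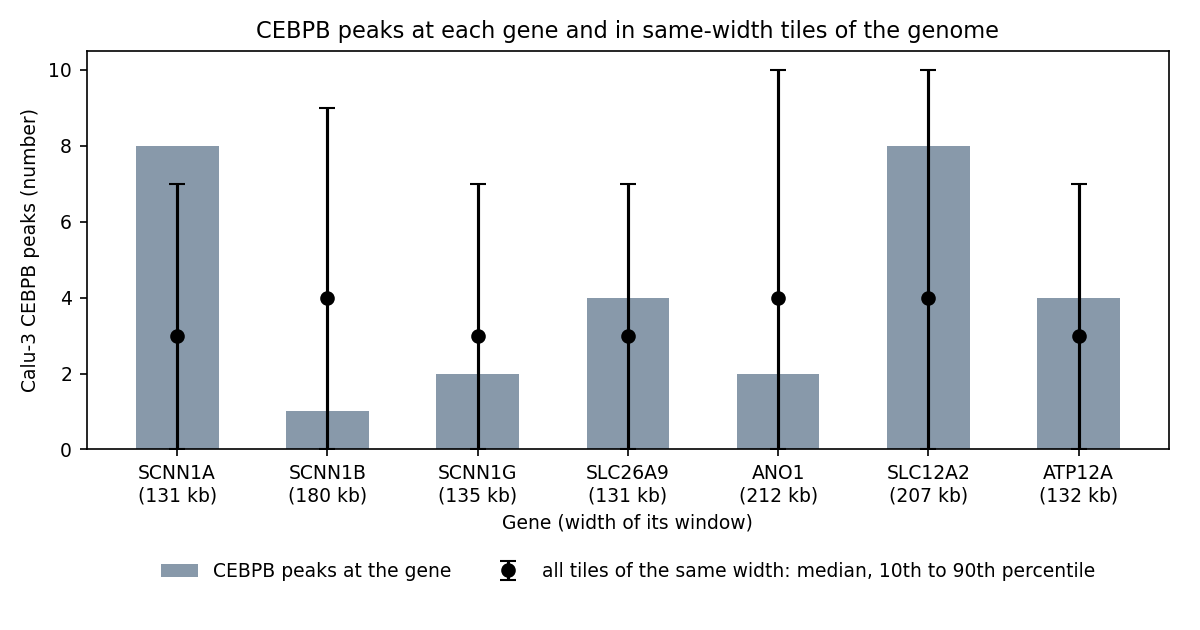
Number of Calu-3 CEBPB peaks in each gene's window (bars), beside the median and the 10th to 90th percentile of all genome tiles of the same width (points and lines). SCNN1A, with 8 peaks, is above the 90th percentile of 7, and the other 6 genes are within the range.

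Across the 7 genes, the middle CEBPB peak had a signal of 3.17, which is also the median signal of the whole list. Its percentile of 47.7 reflects ties, which take their mean rank. Of the CEBPB peaks at the 7 genes, 15 of 29 had a q-value of 0.05 or less (51.7%, exact interval 32.5 to 70.6%), against 46.3% of the whole list. Of the 29 peaks, 1 overlapped a Calu-3 KLF5 peak (the site before SCNN1A), where 0.938% of the list did, and 1 overlapped a 16HBE14o- KLF5 peak (SCNN1G), where 1.03% did. Of the 29, 10 lay before a span, 6 within one and 13 beyond a 3′ end. Low CEBPB peaks often share a value: 4384 peaks of the list had the signal of 3.17 seen at ANO1 and ATP12A, and 3247 the signal of 3.57 seen at SLC26A9 and ATP12A. Small differences in percentile among them are therefore not informative. The KLF5 peaks all had q-values of 0.05 or less, as did 86.6% of all KLF5 peaks in Calu-3 and 78.9% in 16HBE14o-. Their median percentiles were 81.9 for the 2 Calu-3 and 77.2 for the 4 16HBE14o- peaks.

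The 50 kb limit is a choice. The outermost peaks inside it were 6.23 kb (Calu-3 KLF5, SCNN1A), 33.7 kb (16HBE14o- KLF5, SCNN1A) and 44.7 kb (CEBPB, ATP12A) from a span. The nearest outside it were a Calu-3 KLF5 peak 68.1 kb from SCNN1A (percentile 62.6), a 16HBE14o- KLF5 peak 54.2 kb from ANO1 (percentile 77.9) and a CEBPB peak 53.0 kb from SCNN1A (percentile 73.8).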

How the data were processed

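The data were 3 peak lists. The authors combined the 2 samples of a group into 1 list, per the series' design text, with hg19 coordinates per the file headers (and per the submitters' processing notes). Per the file headers the lists hold peaks of the irreproducible discovery rate procedure. For the aligner, peak caller, filters and controls the sources used here give nothing, and sequencing depth is unknown because the deposited lists hold no read counts. Used were the deposited signal value per peak (normalization not stated), the deposited score of the KLF5 lists (540 to 1000) and the deposited −log10 q-values. The labels do not say if the samples were separate cultures.

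The 7 genes, their spans and the motifs were chosen with earlier results of these data known. Named are all KLF5 peaks at the genes and, per gene, the 3 CEBPB peaks of highest signal and the one nearest the 5′ end; others are named for completeness or as stated. Peaks overlapped when they shared at least 1 bp. Percentiles rank the signal within a list, with ties at their mean rank. Tiles covered each chromosome between the outermost peaks of the 3 lists. Intervals are exact (Clopper-Pearson, 95%) and cover counting error only. No tests were run, since there is 1 list per group and peaks are not replicates. Gene directions came from the RefSeq promoter table or, for SCNN1A and SCNN1G, general knowledge. Neighbouring genes came by name from the RefSeq table of GRCh38.p14 and promoter sequences from RefSeq, with 5 of the 7 genes matched. Further genes of airway fluid transport were not analysed here, because no hg19 annotation was used. Alternatives varied the flank, overlap rule, thresholds, list length, merging, peak position and ranking. Overlap and window counts were tested on simulated data. Python 3.11.15, numpy 2.4.6, pandas 2.3.3, scipy 1.17.1 and matplotlib 3.10.9 were used.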

Additional observations from a re-analysis of the deposited data

How the results depend on the processing

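No paired analysis was possible because every list combines the samples of its group, and for the same reason no replicate could be left out. The 2 Calu-3 KLF5 peaks were counted under every alternative, with 3 peaks at a flank of 100 kb. The 4 16HBE14o- KLF5 peaks became 1 at a flank of 25 kb, the peak at the start of ANO1, and 9 at 100 kb. The 29 CEBPB peaks became 19 at a flank of 25 kb, 15 with a q-value of 0.05 or less, 15 in the 50% of the list with the higher signal, and 2 with the list limited to its 1510 highest peaks. The share of 16HBE14o- KLF5 peaks with CEBPB, 25%, was 0% when 50% of the shorter peak had to be shared, 0% with summits within 100 bp, 0% with CEBPB q-values of 0.05 or less and 0% at a flank of 25 kb. The Calu-3 share of 50% was 66.7% (of 3 peaks) at 100 kb and the same under the other 4 alternatives. Overlap between the KLF5 lists remained 0 under both other overlap rules. Median percentiles ranked by q-value were 78.6, 74.4 and 54.1 for Calu-3 KLF5, 16HBE14o- KLF5 and CEBPB. Both Calu-3 KLF5 peaks had the highest −log10 q of their list, 3.12, which 42.9% of that list share. The value of 78.6 is therefore the highest that this ranking can give. In 16HBE14o-, 32.2% of the list share the highest −log10 q, so the q-value ranks of KLF5 peaks are coarse. Unknown depth limits every statement that a list has no peak at a gene.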
